A study of Schizosaccharomyces pombe with 24 samples.

Results

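The comparison described here is the loss of Mst2 against wild type in fission yeast (Schizosaccharomyces pombe), in 4 of the 24 expression arrays of a study of histone acetyltransferase mutants. The arrays are those labelled Δmst2 replicates 1 and 3 and wild type replicates 1 and 3. All 4996 probe sets other than the controls and the 3 genes that served to choose the arrays were examined. According to the strain list of the study, the Δmst2 strain is of mating type h+, has mst2 replaced by ura4+, and carries the ura4-D18, leu1-32 and ade6-M210 alleles. Of the wild-type strains on that list, one is h+ with ade6-M216 and can1-1, and the other h- with ade6-M210. A legend of the study on its array comparisons names the h+ strain as wild type, while the labels give no strain. All of them carry ura4-D18 and leu1-32, and the gain of ura4+ and the loss of mst2 cannot be told apart. Cells grew asynchronously at 30 °C by the labels, and the methods describe the replicates as independent isolates. The 4 arrays share 1 experiment date.

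Mst2 is a histone acetyltransferase of the MYST family, the catalytic subunit of a complex that acetylates lysine residues of histone H3. Acetylated histones generally accompany open, transcribed chromatin, and deacetylases such as Sir2 oppose the mark. In fission yeast Mst2 is known as an antagonist of silencing near telomeres, and cells without it are sensitive to agents that disturb DNA replication or microtubules. The question of the comparison is which transcripts change level when this enzyme is missing.

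The arrays were chosen by the level of 3 transcripts, whose values are a description and were given no test. Levels are log2 intensities per probe set, in which 1 unit is a 2-fold step. Signal for mst2 was 5.18 in Δmst2 replicate 1 and 5.28 in Δmst2 replicate 3, against 9.89 and 10.13 in wild type replicates 1 and 3. Signal for ura4, which encodes a uracil synthesis enzyme, was 13.08 and 13.50 in these Δmst2 arrays, against 7.40 and 7.45 in the wild-type arrays. In the library labelled Δmst2 replicate 2, mst2 was at 10.01, ura4 at 7.18 and gcn5, another histone acetyltransferase gene, at 5.43. This library therefore keeps mst2 and lacks gcn5, against its label. A high ura4 signal of 12.85 was found in the library labelled wild type replicate 2, together with mst2 at 8.73. The library labelled Δgcn5 replicate 2 had mst2 at 5.21, gcn5 at 10.93 and ura4 at 13.30, and was left out of the fit as well. For his3, which encodes a histidine synthesis enzyme, the Δmst2 arrays that were compared had 13.07 and 13.61, and the wild-type arrays 13.72 and 13.90. It was at 5.90 in the library labelled Δmst2 replicate 2.

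**Figure D1:**
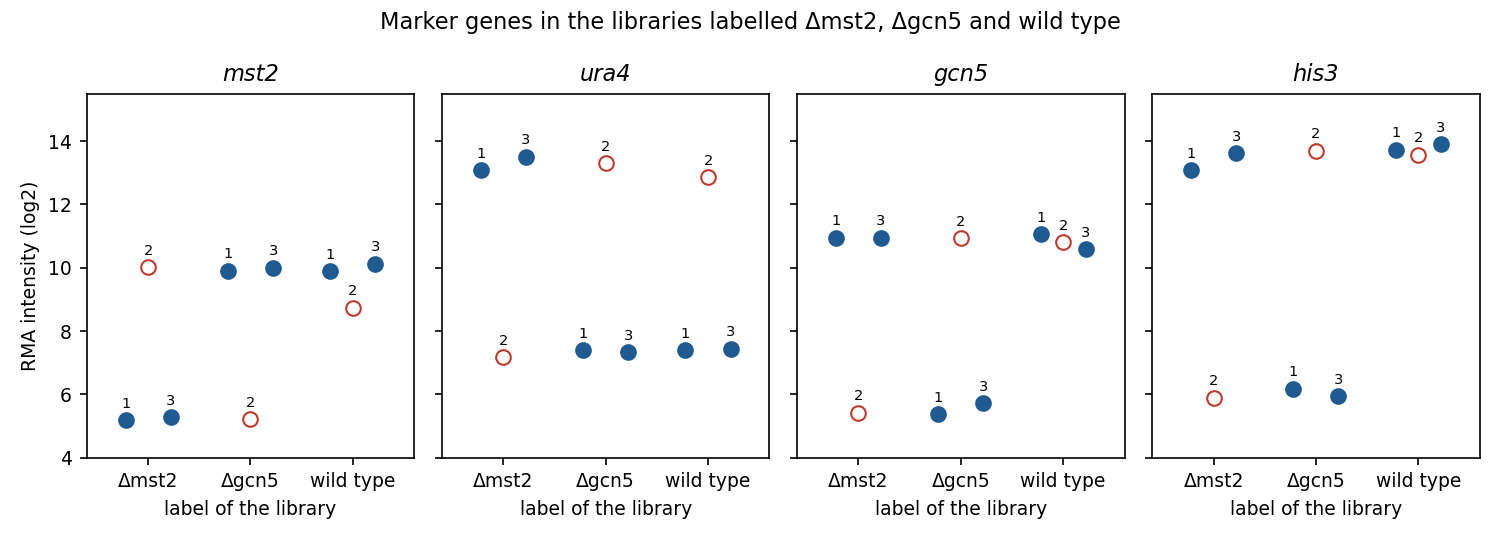
Levels of mst2, ura4, gcn5 and his3 (log2 RMA intensity, vertical axis) in each library by its label, with the replicate number above each point; filled points entered the fit and open points were left out. The open point of Δmst2 has mst2 at 10.01 and the open point of Δgcn5 has it at 5.21, while the filled Δmst2 points have 5.18 and 5.28.

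Past an adjusted p of 0.05, 11 probe sets rose (0.22% of 4996) and 32 fell (0.641%) in Δmst2, 43 in all (0.861%). These p-values came from limma on 21 arrays, adjusted over all probe sets. The other groups entered only to estimate the spread. At an unadjusted p under 0.05 there were 1054 (21.1%). With a change of at least 3.25-fold required as well, 4 rose (0.0801%) and 8 fell (0.16%). The rises ran from 0.87 to 2.44 on the log2 scale and the falls from -0.67 to -4.34. Only 11 of the 43 probe sets carried a gene name of their own, the other 32 carrying none here. The named genes that rose were tlh2 and hsp16 (0.0686% of the 2914 named probe sets). Those that fell were isp4, amt1, pfl8, vht1, rad50, rdh54, aes1, sod22 and gcv1 (0.309%).

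The Δmst2 and wild-type arrays did not overlap for any of the 43, and also not for 34.1% of all probe sets. The gap between the nearest arrays of both groups had a median of 0.91 over the 43, and ran from 0.38 to 3.69.

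The arrays of each group differed among themselves more than those of every other group. Over all probe sets the root mean square SD was 0.355 in Δmst2 and 0.368 in wild type (2 arrays each), against 0.099 to 0.292 in the other groups with over 1 array. Δmst2 replicate 3 correlated better with wild type replicate 1 (r = 0.985) than with Δmst2 replicate 1 (r = 0.968), whereas wild type replicate 1 and wild type replicate 3 had r = 0.965. With only the 4 arrays in the fit, 1 of the 43 probe sets passed, and 136 had an unadjusted p under 0.05. This was an unnamed probe set that fell by 3.43. Without Δmst2 replicate 1, 17 probe sets passed, and without wild type replicate 3, 20. Without Δmst2 replicate 3, 1352 passed, and without wild type replicate 1, 442. The calls below therefore rest on the spread of the other groups. The SEs below are likewise pooled over all groups in the fit, although Δmst2 and wild type had the widest spread. They can therefore be too small for this comparison. The 3′ minus 5′ signal of the GPD3 control probes, a measure of RNA integrity and labelling, was 0.89 and 1.05 in the Δmst2 arrays and 1.64 and 1.67 in the wild-type arrays. That of ACT1 was -0.13 in each Δmst2 array, against -0.11 and -0.15 in the wild-type arrays. Its part in the changes was not tested.

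**Figure D2:**
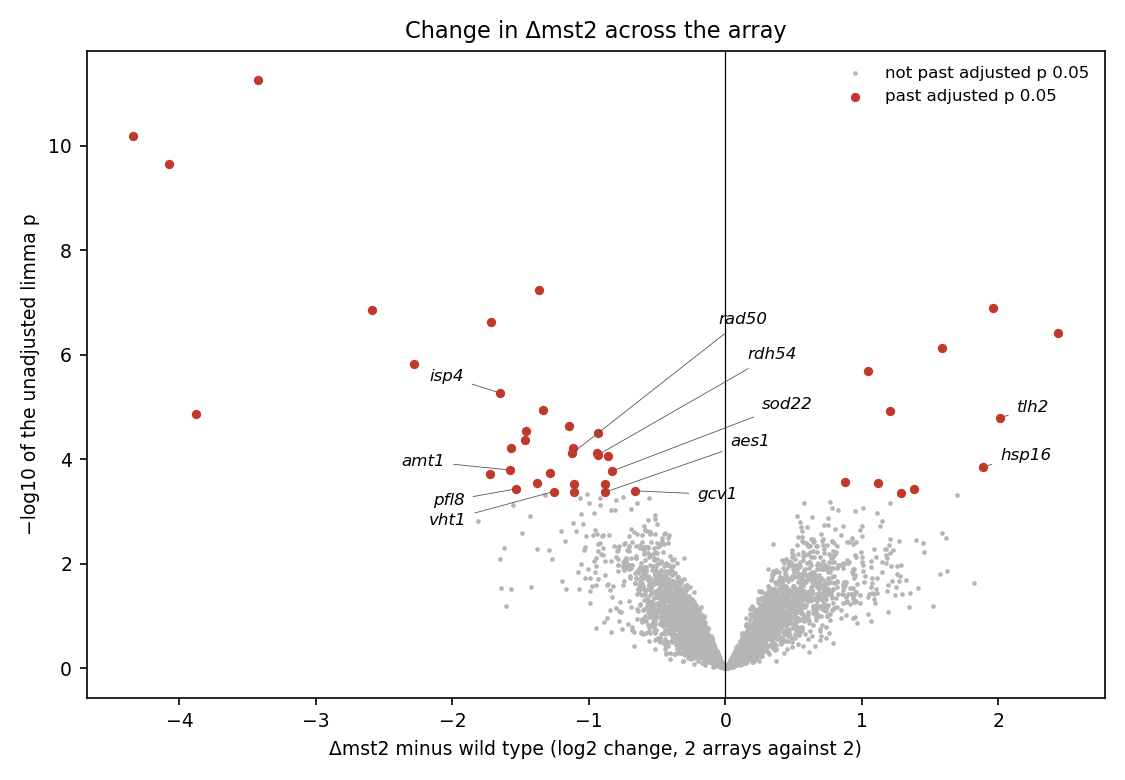
Change in Δmst2 against wild type (log2, horizontal axis) and the unadjusted limma p (−log10, vertical axis) for 4996 probe sets; red points passed an adjusted p of 0.05 and the 11 named genes among them are labelled. The 11 red points on the right rose and the 32 on the left fell, down to -4.34.

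tlh2 encodes a RecQ-type helicase and is the gene nearest the right end of chromosome II in the annotation used. Its level was 7.17 and 7.98 in Δmst2, against 5.80 and 5.33 in wild type. The rise was 2.01 ± 0.33 on the log2 scale (pooled SE, 2 arrays each, adjusted p = 0.0045, limma). The wild-type levels were near that of the deleted mst2 (5.18 and 5.28 in Δmst2), so the rise is given as a difference of log2 values and not as a fold. Both Δmst2 arrays lay above both wild-type arrays, by at least 1.37. The array holds 3 further tlh2 probe sets, none of which passed. Probe set 1779068_s_at lay at 7.11 in Δmst2 replicate 3 and lower in replicate 1, both above wild type with 5.36 and 5.46 (change 1.15 ± 0.30, adjusted p = 0.0974, limma). The changes of the remaining probe sets were -0.05 ± 0.29 (1775264_s_at) and -0.04 ± 0.11 (1778554_at), and on these the 4 arrays lay between 4.93 and 5.47. Near-identical telomeric copies of tlh2 may share its probes, so that the gene of origin is uncertain.

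The level of tlh2 also differed among the libraries that were left out. It was 11.87 in the library labelled Δmst2 replicate 2, which lacks gcn5, and 7.99 where the label reads Δgcn5 replicate 2. Where it reads wild type replicate 2, the level was 7.83. With that wild-type library kept, the rise was 1.26 and did not pass. Without wild type replicate 3, it was 1.78 and did not pass either.

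hsp16 encodes a small heat shock protein that binds unfolded proteins. It lay at 14.56 and 14.23 in Δmst2, against 13.11 and 11.90 in wild type. The rise was 1.89 ± 0.38 (pooled SE, 2 arrays each), 3.71-fold, with adjusted p = 0.0238 (limma). The wild-type arrays stood further apart than the Δmst2 arrays, and both were below them. In the library labelled wild type replicate 2, hsp16 lay at 13.99. With that library kept, the rise was 1.39 and did not pass. The rise did not pass without Δmst2 replicate 1 (1.73) or without wild type replicate 3 (1.29).

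Among the falls were genes of uptake at the plasma membrane. isp4 encodes an oligopeptide transporter that is induced on nitrogen starvation, and amt1 an ammonium transporter. isp4 lay at 10.44 and 11.01 in Δmst2, against 12.10 and 12.64 in wild type, a fall of -1.65 ± 0.24 (adjusted p = 0.00193, limma). It had the largest fall of these 9 named genes, 3.14-fold, and its nearest arrays were 1.10 apart. amt1 was at 10.07 and 11.07 in Δmst2, against 11.67 and 12.63 in wild type (-1.58 ± 0.32, adjusted p = 0.0266, limma). Here the arrays of each group lay about 1 unit apart, more than the 0.60 between the nearest arrays of both groups.

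vht1 encodes the uptake transporter of biotin (vitamin H). Its level was 12.39 and 13.65 in Δmst2, against 14.09 and 14.47 in wild type (-1.26 ± 0.28, adjusted p = 0.048, limma). The fall came to 0.63 without Δmst2 replicate 1 and then did not pass. sod22, which encodes a sodium ion antiporter, was at 8.21 and 8.53 in Δmst2, against 9.13 and 9.28 in wild type (-0.83 ± 0.17, adjusted p = 0.0273, limma). pfl8, a flocculin gene of the cell surface, is the 33rd gene from the left end of chromosome I. It lay at 8.78 and 9.01 in Δmst2, against 10.91 and 9.94 in wild type (-1.53 ± 0.34, adjusted p = 0.0457, limma). For sod22 and pfl8 the Δmst2 arrays were closer to each other than to either wild-type array.

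A pair of genes of DNA recombination also fell. rad50 encodes a subunit of the complex that binds and processes broken DNA ends. Its level was 8.23 and 8.42 in Δmst2, against 9.23 and 9.67 in wild type (-1.12 ± 0.21, adjusted p = 0.0148, limma). rdh54 encodes a DNA translocase related to Rad54 of homologous recombination. It was at 7.73 and 7.85 in Δmst2, against 8.75 and 8.70 in wild type (-0.94 ± 0.18, adjusted p = 0.0152, limma). For rdh54 the difference within each group was at most 0.12, and the nearest arrays of both groups were 0.85 apart.

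gcv1 and aes1 fell as well. gcv1 encodes a subunit of the glycine cleavage system. Its level was 12.39 and 12.81 in Δmst2, against 13.19 and 13.34 in wild type (-0.67 ± 0.15, adjusted p = 0.048, limma). aes1, the 25th gene from the left end of chromosome II, lay at 12.94 and 13.01 in Δmst2, against 13.62 and 14.08 in wild type (-0.88 ± 0.20, adjusted p = 0.048, limma). Both were close to the threshold. Just outside it were the meiotic gene mug5 (change 1.70, adjusted p = 0.0512, limma) and ctr4, a copper transporter gene (-1.32, adjusted p = 0.0512).

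When wild type replicate 3 was left out, only isp4 and pfl8 of the 11 named genes still passed. Without Δmst2 replicate 1 it was tlh2 alone. Without wild type replicate 1 every one but pfl8 passed, and without Δmst2 replicate 3 all did. In the fit that kept wild type replicate 2, isp4 and sod22 alone passed. The direction of each named gene was the same in all of these fits.

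**Figure D3:**
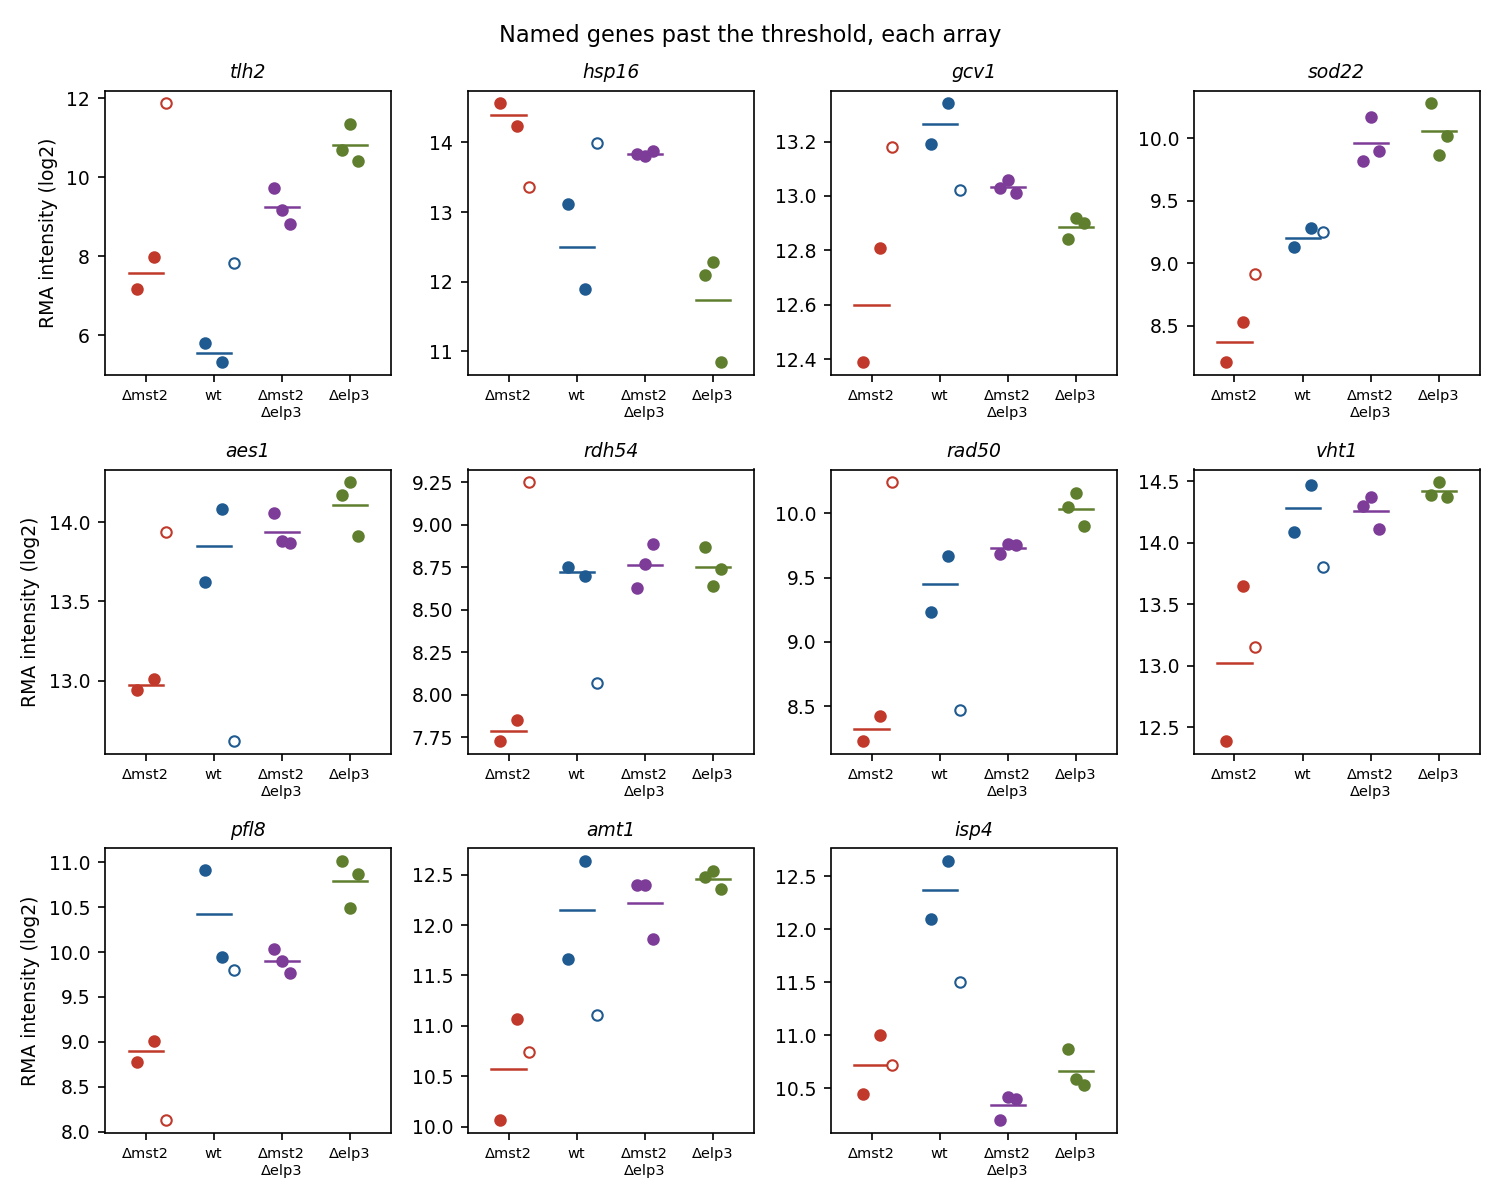
Levels of the 11 named genes past the threshold (log2 RMA intensity, vertical axes, which do not start at 0) in Δmst2, wild type, Δmst2 Δelp3 and Δelp3; points are arrays, bars the mean of the filled points, and open points the libraries left out. For rdh54 the Δmst2 arrays lie at 7.73 and 7.85 and the wild-type arrays at 8.75 and 8.70; the open Δmst2 point is the library that lacks gcn5.

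Of the unnamed probe sets, 1769825_at and 1772987_at fell the most. 1769825_at lay at 5.98 and 5.92 in Δmst2, against 9.67 and 10.91 in wild type (-4.34 ± 0.28, adjusted p = 8.19e-08, limma). 1772987_at lay at 7.47 and 6.63 in Δmst2, against 11.33 and 10.92 in wild type (-4.08 ± 0.28, adjusted p = 2.26e-07, limma). For 1769825_at the Δmst2 arrays were thus near the bottom of the scale, whose lowest value was 4.85. In the library labelled wild type replicate 2, 1769825_at and 1772987_at lay at 7.38 and 8.77, between the levels of both groups. With all 24 arrays under their labels, the changes of these probe sets were -3.52 and -3.77. For Δmst2 the study reports the same values for SPAC186.06 and SPAC186.05c, which its discussion places near a telomere. The annotation used here names neither probe set, so the match rests on the values alone.

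The unnamed probe sets with the largest rises were 1772678_at and 1771754_at. 1772678_at was at 10.49 and 10.01 in Δmst2, against 8.31 and 7.32 in wild type (2.44 ± 0.29, adjusted p = 1.90e-04, limma). 1771754_at was at 10.89 and 11.03 in Δmst2, against 8.62 and 9.38 in wild type (1.96 ± 0.21, adjusted p = 8.62e-05, limma). In both the groups were separated by at least 1.51.

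The same loss can be examined in arrays that enter neither mean of this comparison, although they were part of the fit that estimated its spread. Δmst2 Δelp3 and Δelp3 have 3 arrays each, all of the second experiment date. Both strains are h+, have elp3 replaced by KanMX6 and carry leu1-32, ura4-D18 and an ade6 allele, and in Δmst2 Δelp3 mst2 is again replaced by ura4+. Elp3 is the acetyltransferase of the Elongator complex. There, 21 probe sets rose (0.42%) and 42 fell (0.841%) in Δmst2 Δelp3. The 3′ minus 5′ signal of GPD3 separated these groups too, with 2.34 to 2.65 in Δmst2 Δelp3 and 3.18 to 4.13 in Δelp3, lower in the strain without mst2 in both backgrounds, and its part was not tested. Of the 43 probe sets above, 34 changed in the same direction there (79.1%), against 52.3% of all probe sets. Past the threshold there in the same direction were 10 of the 43, against 48 of all 4996 probe sets. Past it in the opposite direction were 3 of the 43, against 15 of all 4996. In the Δgcn5 background (Δgcn5 Δmst2 against Δgcn5 replicates 1 and 3), 36 of the 43 had the same direction (83.7%), against 55.2% of all. The strains of both these groups carry a his3 deletion, but by the strain list Δgcn5 Δmst2 is h+ and Δgcn5 is h-. Δgcn5 Δmst2 replicate 3 is of the second experiment date and the other 4 arrays of the first. Mating type and the loss of mst2 cannot be told apart there. The 3′ minus 5′ signal of GPD3 was 0.22 to 0.57 in Δgcn5 Δmst2 and 0.98 and 0.71 in Δgcn5 replicates 1 and 3, and its part was not tested.

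hsp16 was the only named gene of the 11 that passed in the same direction in the Δelp3 background. It was at 13.84, 13.81 and 13.87 in Δmst2 Δelp3, against 12.09, 12.28 and 10.85 in Δelp3. The rise of 2.10 ± 0.31 (adjusted p = 7.42e-04, limma) was 4.28-fold. The difference from the rise in the wild-type background was 0.21 ± 0.48. In the Δgcn5 background it rose by 1.30 ± 0.34 (adjusted p = 0.0278, limma).

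tlh2 went the other way. Its level was 9.73, 9.17 and 8.82 in Δmst2 Δelp3, against 10.68, 11.35 and 10.42 in Δelp3, a fall of -1.58 ± 0.27 (adjusted p = 0.00311, limma). The effects in the Δelp3 and the wild-type background differed by -3.59 ± 0.42 (adjusted p = 2.04e-04, limma). All 6 of these arrays had more tlh2 signal than the Δmst2 arrays at 7.17 and 7.98. In the Δgcn5 background tlh2 was at 12.76, 13.11 and 13.20 in Δgcn5 Δmst2, against 11.16 and 11.47 in Δgcn5 (1.71 ± 0.30, adjusted p = 0.00162, limma). Its probe sets 1779068_s_at and 1775264_s_at also fell in the Δelp3 background, with changes of -1.68 ± 0.24 and -1.85 ± 0.23 (adjusted p = 7.19e-04 and 1.51e-04, limma). In the Δgcn5 background they changed by 2.32 ± 0.27 and 2.43 ± 0.26. Probe set 1778554_at passed in neither.

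None of the 9 named genes that fell passed in the Δelp3 background, where their changes ran from -0.89 ± 0.28 for pfl8 to 0.15 ± 0.12 for gcv1. rdh54 lay at 8.63, 8.77 and 8.89 in Δmst2 Δelp3, against 8.87, 8.64 and 8.74 in Δelp3, and the arrays overlapped. isp4 was at 10.20, 10.42 and 10.40 in Δmst2 Δelp3, against 10.87, 10.59 and 10.53 in Δelp3 (-0.32 ± 0.20, adjusted p = 0.825, limma). For isp4 the Δelp3 arrays lay about as low as the Δmst2 arrays (10.44 and 11.01). For rdh54 the Δelp3 arrays lay near the wild-type arrays (8.75 and 8.70). The difference between both backgrounds did not pass for any of these 9 genes, and for isp4 it was 1.33 ± 0.31. In the Δgcn5 background aes1 fell by 2.22 ± 0.18 (adjusted p = 5.38e-07, limma) and gcv1 by 0.94 ± 0.14 (adjusted p = 2.93e-04, limma). The other 7 did not pass there. Their changes ran from -1.03 ± 0.31 for pfl8 to 0.47 ± 0.22 for isp4, with rdh54 at 0.19 ± 0.16 and rad50 and sod22 at -0.05.

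The unnamed probe sets 1769825_at and 1772987_at ran in opposite directions. 1769825_at lay at 11.04, 10.97 and 10.82 in Δmst2 Δelp3, against 6.26, 6.07 and 5.94 in Δelp3. The rise there was 4.85 ± 0.22, and the difference between the backgrounds 9.20 ± 0.35 (adjusted p = 1.53e-10, limma). 1772987_at lay at 11.20, 11.39 and 10.86 in Δmst2 Δelp3, against 5.91, 6.06 and 6.13 in Δelp3, and the difference was 9.19 ± 0.36. The low levels, 5.91 to 6.26 in both Δelp3 and for 1769825_at in Δmst2, were near those of deleted genes, so these differences of log2 values are not given as folds. Signal was also low in Δgcn5 replicates 1 and 3 (5.97 and 6.22 for 1769825_at, 5.95 and 6.67 for 1772987_at). In Δgcn5 Δmst2 it was 6.07, 5.80 and 5.86 for 1769825_at and 5.89, 5.78 and 5.58 for 1772987_at, and the changes of -0.18 ± 0.25 and -0.56 ± 0.26 in that background did not pass. In mst1-ts, which carries a temperature-sensitive allele of another acetyltransferase gene, the means were 8.86 ± 0.26 and 10.76 ± 0.26 (SD, n = 3). Δgcn5 Δelp3 had 9.11 ± 0.01 and 9.39 ± 0.25 (SD, n = 2). High signal was thus found in wild type, mst1-ts, Δmst2 Δelp3 and Δgcn5 Δelp3, and low signal in Δmst2, Δelp3, Δgcn5 and Δgcn5 Δmst2. The remaining group, Δgcn5 Δelp3 Δmst2 with 1 array, had 6.54 for 1769825_at and 7.81 for 1772987_at. 1771754_at changed by 0.62 ± 0.17 in the Δelp3 background, a difference of -1.34 ± 0.28 (adjusted p = 0.0351, limma). Over all probe sets, the effect of the loss differed between the backgrounds for 28 (0.56%), 9 of which were among the 43.

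**Figure D4:**
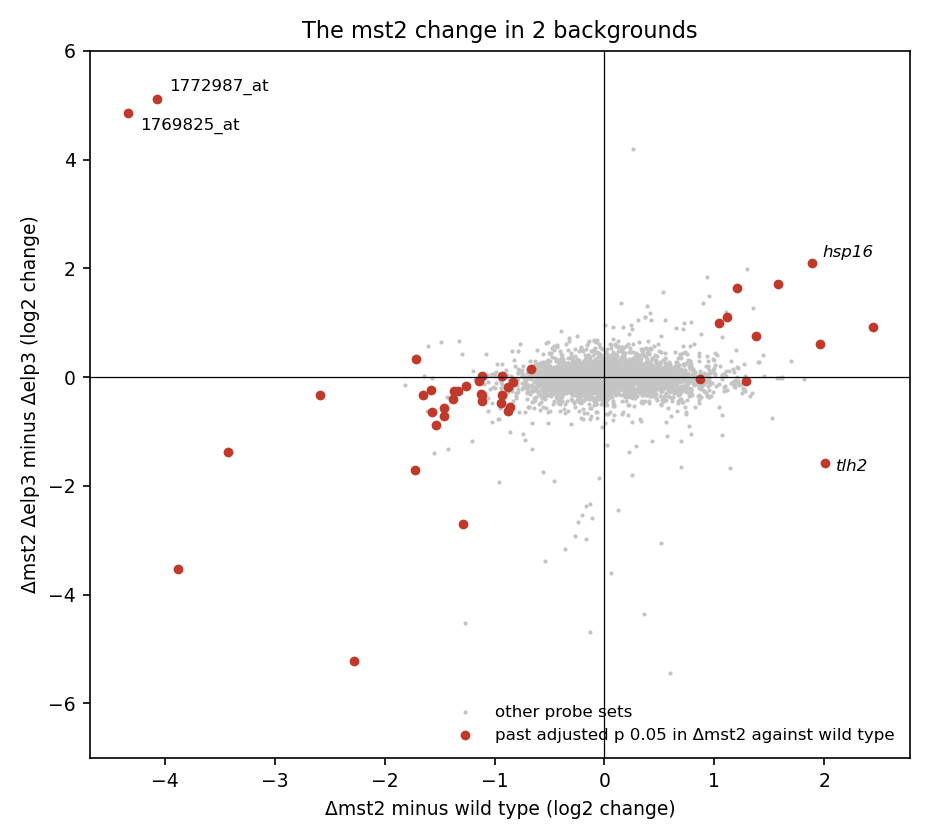
Change of each probe set (log2) on loss of mst2 in the wild-type background (Δmst2 minus wild type, horizontal axis) and in the Δelp3 background (Δmst2 Δelp3 minus Δelp3, vertical axis); red points are the 43 past an adjusted p of 0.05 in Δmst2 against wild type. hsp16 lies high in both, at 1.89 and 2.10, whereas tlh2 lies at 2.01 and -1.58.

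The lists of genes with a common role were chosen with earlier results of these data known, so their counts are descriptions only. Of the lists with over 4 measured members, nitrogen response and amino acid transport had the lowest median change. 3 of its 23 measured genes fell (isp4, amt1 and aes1), and none rose, against 0.641% of all probe sets that fell and 0.22% that rose. The median change was -0.47, against -0.02 over all probe sets, and 20 of the 23 were lower in Δmst2, against 2628 of all 4996. Its median level was 10.99 and 11.20 in Δmst2, against 11.65 and 11.93 in wild type. In Δmst2 replicate 1, 20 of the 23 lay below both wild-type arrays (44.0% of all probe sets did), and in Δmst2 replicate 3, 9 did (22.8% of all). put4, a proline permease gene, lay at 10.62 and 10.94 in Δmst2, against 11.35 and 13.06 in wild type (-1.43 ± 0.36, adjusted p = 0.083, limma). For isp5, a gene of an amino acid permease, wild type replicate 3 was at 11.81 and the other 3 arrays between 8.27 and 8.76. In the Δelp3 background the median of the list was -0.09, and no member passed.

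Of the stress response list, 1 of 29 genes rose, hsp16, and none fell, against 0.22% and 0.641% of all probe sets. The median was 0.15. gst2, of a glutathione S-transferase, lay at 13.35 and 13.41 in Δmst2, against 12.67 and 12.31 in wild type (0.89 ± 0.26, adjusted p = 0.125, limma). It passed in the Δelp3 background, where it rose by 1.36 (adjusted p = 0.00163, limma). ssa1, a gene of an Hsp70 chaperone, lay at 11.78 and 11.52 in Δmst2, against 11.51 and 9.09 in wild type. The wide gap there was between the wild-type arrays.

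Since Mst2 bears on telomeres, genes near chromosome ends and telomere proteins were examined. Taking the 60 genes closest to either end of chromosomes I and II, 65 of the 240 listed genes were measured. Of these, 1 rose (tlh2) and 2 fell (pfl8 and aes1), against 0.22% and 0.641% of all probe sets. Their median change was -0.03, with 30 higher and 35 lower. Probe sets without a gene name could not enter this list. Among them were those with the largest falls, which by their values alone match genes that the study places near a telomere. The counts and the median therefore cover only the measured named genes, not the chromosome ends as a whole. Of 15 genes of telomere proteins, with tlh2 counted among them, only tlh2 rose and none fell, and the median was 0.22. poz1, of a shelterin subunit, changed by 0.78 ± 0.23 (adjusted p = 0.125, limma). In the other direction, both measured flocculin genes were lower, and pfl8 fell.

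The other 5 measured subunit genes of the Mst2 complex were all higher in Δmst2, against 2368 of all 4996 probe sets. Their median change was 0.28, but none passed. ptf2 had the largest change among them, at 12.61 and 11.77 in Δmst2, against 11.67 and 11.26 in wild type (0.73 ± 0.29, adjusted p = 0.191, limma). Here Δmst2 replicate 1 stood above the other 3 arrays. Of 4 other acetyltransferase genes and 21 genes of deacetylases and heterochromatin factors, none passed, and their medians were 0.51 and -0.04.

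The wtf genes, a family of spore killers with near-identical copies, had 15 of 16 members higher, against 2368 of all 4996 probe sets. Their median change was 0.34, and none was past the threshold. Their median level was 8.01 and 7.17 in Δmst2, against 7.21 and 7.22 in wild type, so that replicate 1 alone lay apart. Kinetochore and centromere genes (33 measured, median 0.28) had no member past the threshold. In Δmst2 replicate 1, 20 of them lay above both wild-type arrays (38.0% of all probe sets did), and in Δmst2 replicate 3, 6 did (23.6% of all). Of 32 genes on a list of DNA replication and damage response, which did not hold rad50 or rdh54, none passed (median -0.12). Pyrimidine synthesis and uracil use (9 measured, median -0.37) had none either. fur4, of the uracil permease, lay at 11.07 and 11.27 in Δmst2, against 11.55 and 12.47 in wild type (-0.84 ± 0.21, adjusted p = 0.0716, limma).

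Cell type markers showed no change past the threshold in the 6 M-cell-specific and 4 P-cell-specific genes measured, with medians of 0.00 and -0.21. The pheromone signalling list (20 genes, median 0.03), the meiosis list (50 genes, 0.10), iron uptake (12 genes, 0.07), copper and zinc homeostasis (9 genes, 0.01) and carbon use (20 genes, -0.06) also had none. Neither had phosphate response (4 genes, -0.24), the strain markers (4 genes, -0.42), the histones (11 genes, 0.14) or the reference genes (9 genes, -0.13). The 112 ribosomal protein genes had a median of 0.01 and lay between -0.19 and 0.28.

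**Figure D5:**
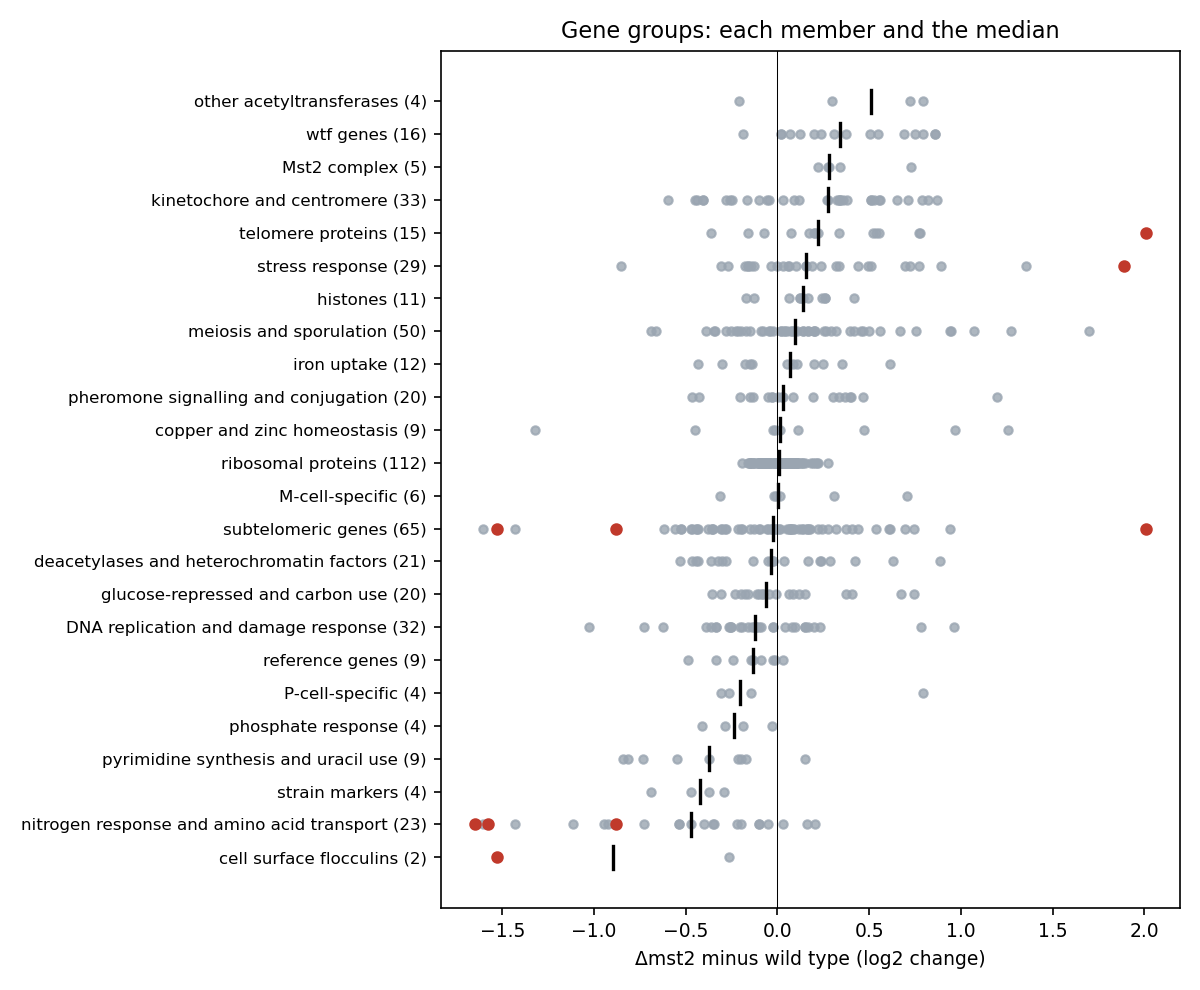
Change in Δmst2 against wild type (log2, horizontal axis) of each measured gene by list, with the number of genes in parentheses; black bars are list medians and red points passed an adjusted p of 0.05. Nitrogen response and amino acid transport has 3 red points on the left, and the ribosomal protein genes lie between -0.19 and 0.28.

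The libraries that were left out were also set against the 43 probe sets. The library labelled Δgcn5 replicate 2, which has no mst2 signal, lay on the Δmst2 side of the midpoint between the groups for 37 of the 43 (86.0%), against 24.7% of all probe sets. The library labelled wild type replicate 2 did so for 24 (55.8%, against 26.5% of all). The library labelled Δmst2 replicate 2 did so for 19 (44.2%, against 39.1% of all).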

How the data were processed

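The deposited values were log2 intensities, 1 per probe set and array, computed by the authors with RMA (which corrects background, normalizes and summarises) from Affymetrix GeneChip Yeast Genome 2.0 arrays. The study used limma. The version of neither was given in the sources used here. The table held 5028 probe sets. Without 29 controls, 4999 were tested, of which 2917 carried 1 gene, 20 several and 2062 none (names from the platform annotation, updated through RefSeq ASM294v3, where 2914 identifiers matched). The values ran from 4.85 to 15.35, with array medians of 10.99 to 11.08. The number of arrays limits the precision.

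A mean per group was fitted to 21 arrays with limma 3.58.1 in R 4.3.3 (12 residual degrees of freedom, prior 3.34), two-sided, with Benjamini-Hochberg adjustment over all 4999 probe sets. The libraries labelled Δmst2 replicate 2, wild type replicate 2 and Δgcn5 replicate 2 were left out. A call needed an adjusted p under 0.05. The fold of the methods, worded there on the log2 scale, was read as 3.25-fold (1.70 on the log2 scale). mst2, ura4 and gcn5 were not counted. The fit was tested on simulated data with the same spread in every group. That test does not cover the wider spread of Δmst2 and wild type. Named genes were all those called with 1 gene name, mst2, ura4, gcn5, his3, tlh2, and the called and most changed members of each list. A list counts 1 probe set per gene. The members and lists were chosen with earlier results of these data known. The methods describe independent isolates. The p-values and SEs rest on the spread between isolates within groups, pooled over all groups in the fit and not only Δmst2 and wild type. Alternatives changed the arrays in the fit, the normalization, the weights, the variance prior, the filter, the replicate block and 1 array at a time.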

Additional observations from a re-analysis of the deposited data

Results flagged for a closer look

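The effect of losing mst2 differed between the Δelp3 and the wild-type background, by limma's test of the difference, for 4 probe sets described above and called in Δmst2 against wild type. The difference was -3.59 for tlh2, -1.34 for 1771754_at, 9.20 for 1769825_at and 9.19 for 1772987_at on the log2 scale, each as the effect in the Δelp3 background minus that in the wild-type background. The tlh2 probe sets 1779068_s_at and 1775264_s_at, which were not called there, differed as well, by -2.82 and -1.79. For tlh2, 1769825_at and 1772987_at 1 side of a comparison lay near the level of deleted genes, so these are differences of log2 values and not folds. The 2 backgrounds lie on different experiment dates, and the part of the date was not tested.

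The control probe sets for ura4, which belong to no comparison above, gave a signal in the library labelled wild type replicate 2. The 3′, 5′ and middle probe sets lay at 12.23, 10.64 and 11.23 there. In wild type replicates 1 and 3 they lay at 6.51 and 6.86, at 5.03 and 5.08, and at 5.86 and 5.95.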

How the results depend on the processing

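Counts are given as probe sets that rose and fell in Δmst2, 11 and 32 in the fit above, and then with the fold required, 4 and 8. With only the 4 arrays compared they were 0 and 1, with the fold 0 and 1. On the first experiment date alone they were 10 and 13. Keeping the library labelled Δgcn5 replicate 2 under its label gave 0 and 9, with the fold 0 and 5. Keeping wild type replicate 2 gave 7 and 21, with the fold 2 and 5. All 24 arrays under their labels gave 0 and 8, with the fold 0 and 4. Array weights gave 2 and 6, with the fold 2 and 5. Leaving out probe sets with a mean level in the lowest 25% gave 4 and 9, with the fold 3 and 2, and removed 23 of the 43 from the test. Of alternatives chosen after seeing the data, the 6 arrays labelled Δmst2 and wild type alone gave 0 and 0, with and without the fold (limma, with 245 at an unadjusted p under 0.05), and the 4 arrays with Δgcn5 replicates 1 and 3 gave 0 and 3, with the fold 0 and 3. Quantile normalization, median centring, a variance trend and 1 probe set per gene left the counts within 1.5 times.

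Leaving out 1 array at a time gave 4 (without wild type replicate 3) to 649 (without Δmst2 replicate 3) that rose and 10 to 703 that fell. With the fold, 2 to 45 rose and 7 to 28 fell. The lone array of a group was then assumed to vary like the other groups. Probe sets whose effect was higher in the Δelp3 background than in the wild-type background numbered 8, and those lower 20. With array weights they were 5 and 10, and with 1 array left out 7 to 354 and 16 to 414. The cause of these shifts was not tested. The 11 named genes kept their direction under each alternative that tested them. isp4 passed in 12 of 18, tlh2 in 10 and hsp16 in 9, and each of the others in 5 to 8.

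With the replicate number as a block, 10 rose and 25 fell, and 33 of the 43 were still called. Of the named genes, aes1, gcv1 and vht1 were not, with adjusted p = 0.0672, 0.0768 and 0.0768 (limma). Δmst2 and wild type share the numbers of 2 pairs only, and the deviations of same-numbered arrays from their group means correlated at r = 0.45, a hint from the data and not from the design.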
